A study of Homo sapiens with 12 samples.

Results

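Messenger RNAs of 7 genes were followed by their main 3' end: ALYREF, EMG1, CHCHD2, SLC25A1, GAMT, ADGRL2 and CD63. They were chosen on a measured value, the change between STAU1-knockout and wild-type cells in the level of an end in polysomes relative to its level in the cytoplasm, so that this change and everything computed from the same 4 libraries is a description here and is given with no test. Sites on the gene's strand within 1000 nt of the gene's hg19 end were taken. They numbered 37 of the 189010 sites in the table of cell fractions and 37 of the 640413 sites in the table of pull-downs, and the site with the most reads stood for each gene. The tables name no gene, so the names rest on position and strand, and no site was placed in a UTR, exon or intron.

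Staufen1 (STAU1) is a double-stranded-RNA-binding protein that binds paired structures, often in 3' UTRs, and has been linked to mRNA transport, translation and decay. Polysomes are mRNAs carrying several ribosomes, and the level of an mRNA there relative to the cytoplasm is a common measure of how much of it is being translated. Such a ratio can shift because the polysome level changes, because the cytoplasm level changes, or both, and the libraries were therefore taken apart into these parts.

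HEK293T, a line derived from human embryonic kidney, was the source of the RNA, which was sequenced with 3'READS+, a method that captures the stretch next to the poly(A) tail and so counts 3' ends. The fractions were cytoplasmic and polysomal RNA of a STAU1-knockout line, C8, made by double nicking with a Cas9 nickase, and of cells labelled wild type (the protocol names C9 as the isogenic control), with 1 library for each of the 4 combinations. For the pull-downs, C8 cells were transiently given either STAU1-FLAG or FLAG-GFP, and libraries were made from the total lysate (input) and from RNA recovered with anti-FLAG (IP), with 2 replicates in each of 4 groups. All 8 pull-down libraries thus came from cells without endogenous STAU1, and the STAU1 in them was transfected. The knockout is 1 line, so that its genotype and other features of that line cannot be told apart. The labels do not say that replicates came from separate cultures, so a p-value here speaks only of the spread between these libraries, which may be technical.

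The fraction libraries held 2799226 to 3483937 reads. Mitochondrial sites took 18.3% of the reads of wild-type cytoplasm and 13.9% of those of knockout cytoplasm, against 5.26% and 4.41% in polysomes. The pull-down libraries held 5567893 to 9655646 reads, except the GFP IP libraries with 1291888 and 1245270. STAU1 input replicate 1 stood apart, since 99156 sites had a read in it and 175098 in the other replicate of its group. At the site taken for the 3' end of STAU1 itself (chromosome 20, minus strand, 47730063) wild-type cells had 165 CPM (reads at a site scaled to a common library size, with TMM factors) in the cytoplasm and 89.2 in polysomes, and knockout cells had 65.4 and 55.5. A 3' tag outside the edited part of a gene does not check the knockout.

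ALYREF and EMG1 act on other RNAs in the nucleus: ALYREF is an adaptor for mRNA export, and EMG1 is a methyltransferase of ribosome biogenesis. The ALYREF end (chromosome 17, minus strand, 79845719) had 252 CPM in the cytoplasm and 99.9 in polysomes of wild-type cells, and 115 and 93.7 in knockout cells. Its polysome levels were close together, while the cytoplasm level of the knockout was the lower of the pair by 2.20-fold. On the log2 scale the cytoplasm part was -1.14 (95% counting interval -1.32 to -0.95), the polysome part -0.09 (-0.31 to 0.13), and the polysome-over-cytoplasm change 1.04 (0.76 to 1.33). These intervals cover counting error only: reads amplified by PCR and carrying no molecular identifier are not independent molecules. In bulk RNA, fewer cells that hold an mRNA and less of it per cell cannot be told apart. EMG1 (chromosome 12, plus strand, 7085136) had 143 CPM in wild-type and 74.5 in knockout cytoplasm, and 182 in wild-type and 198 in knockout polysomes. Its shift too lay in the cytoplasm, with a part of -0.95 (-1.18 to -0.71) against 0.12 (-0.04 to 0.28) in polysomes, and its change of 1.06 was the highest of the 7 genes. Of the 7 genes, EMG1 was the one most weighted to polysomes in knockout cells, 2.65-fold higher there than in the cytoplasm. This ratio was reached by 6 of the 4766 sites that had 50 or more reads in every fraction library, itself included.

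CHCHD2 and SLC25A1 encode mitochondrial proteins, a small protein of the intermembrane space that also acts as a stress-responsive regulator in the nucleus, and the citrate carrier of the inner membrane. CHCHD2 (chromosome 7, minus strand, 56169263) had 642 CPM in wild-type cytoplasm and 325 in knockout cytoplasm, against 323 and 306 in polysomes. Like ALYREF it was lower in the cytoplasm of the knockout and had nearly equal polysome levels, with parts of -0.98 (-1.10 to -0.87) and -0.08 (-0.20 to 0.05). Processed copies of CHCHD2 lie elsewhere in the genome, and the sources used here do not say how reads that match them were assigned. SLC25A1 (chromosome 22, minus strand, 19163095) had 184 CPM in wild-type and 135 in knockout cytoplasm, and 208 and 286 in the respective polysomes. Here both fractions moved, in opposite directions and by the same amount, -0.45 (-0.64 to -0.26) in the cytoplasm and 0.46 (0.32 to 0.60) in polysomes. Its change of 0.91 equalled that of CHCHD2 (0.91) although the parts differed.

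GAMT encodes guanidinoacetate methyltransferase, the last enzyme of creatine synthesis. Its main end (chromosome 19, minus strand, 1397093) had 127 CPM in wild-type and 142 in knockout cytoplasm, and 94.9 in wild-type and 204 in knockout polysomes. GAMT was the one member whose change lay in polysomes: the polysome part was 1.10 (0.91 to 1.30), a 2.15-fold higher level, and the cytoplasm part 0.16 with a counting interval that included 0 (-0.04 to 0.37). A polysome part as high was seen at 34 of the 4766 sites, itself included.

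ADGRL2 and CD63 encode membrane proteins, a latrophilin of the adhesion G-protein-coupled receptors and a tetraspanin of late endosomes, lysosomes and exosomes. ADGRL2 (chromosome 1, plus strand, 82458106) had the fewest reads of the main ends, 201 to 351 per library, and stood at 108 CPM in wild-type and 65.7 in knockout cytoplasm, and at 72.9 and 91.8 in polysomes. Both parts contributed, -0.72 (-0.98 to -0.46) in the cytoplasm and 0.33 (0.09 to 0.58) in polysomes. CD63 (chromosome 12, minus strand, 56119258) had 299 CPM in wild-type cytoplasm and 615 in knockout cytoplasm, and 649 and 618 in polysomes. CD63 was the one member to shift away from polysomes, by -1.11 (-1.26 to -0.96), and this lay in the cytoplasm, where the knockout was 2.06-fold higher, with a part of 1.04 (0.92 to 1.16) against -0.07 (-0.16 to 0.02) in polysomes.

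**Figure D1:**
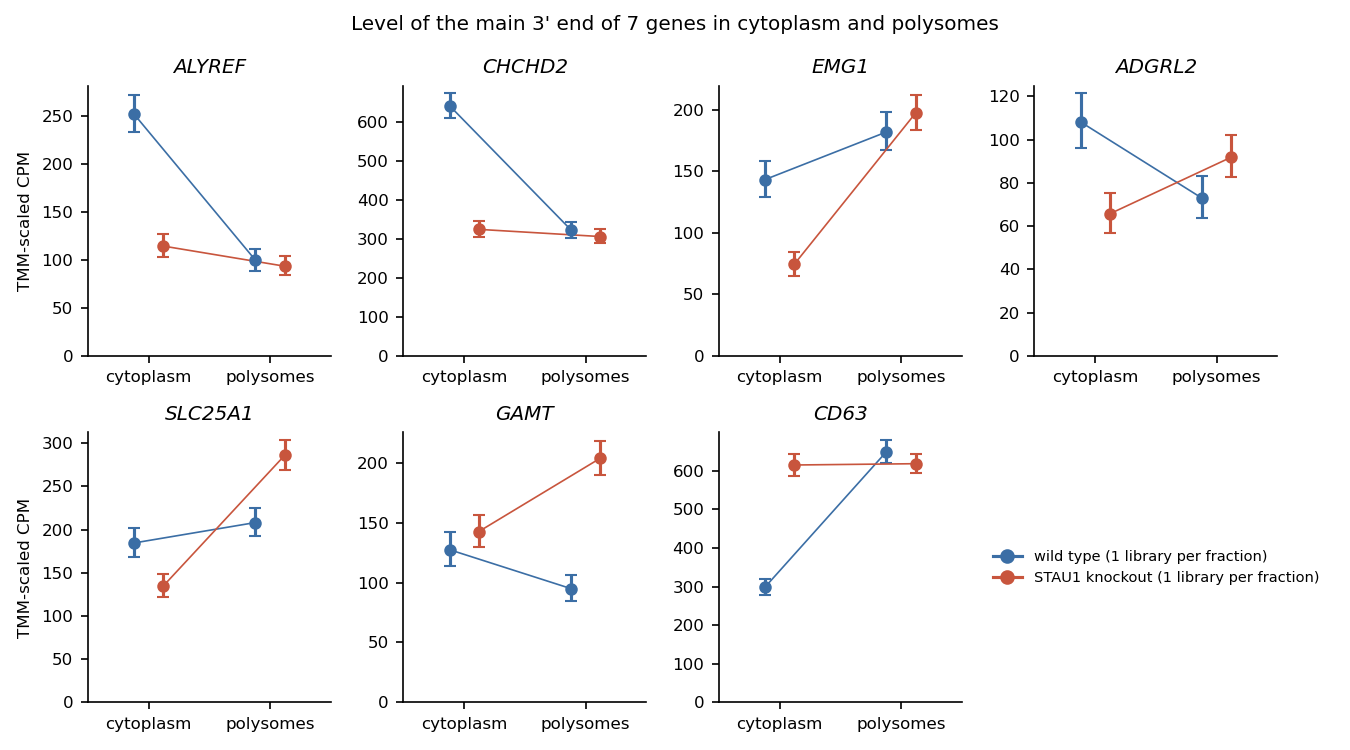
Level of the main 3' end of each of the 7 genes (TMM-scaled CPM, axis from 0) in cytoplasm and polysomes of wild-type (blue) and STAU1-knockout (red) cells, 1 library each; bars are 95% counting intervals and lines join the fractions of a genotype. ALYREF, CHCHD2 and EMG1 are separated in the cytoplasm and close in polysomes, GAMT the reverse, and CD63 is higher in knockout cytoplasm (615 against 299 CPM).

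Over the 7 genes the cytoplasm part was the larger in 5 and the polysome part in 2, GAMT and, by a small margin, SLC25A1. The counting interval of the polysome part included 0 for 4 genes (ALYREF, CHCHD2, EMG1 and CD63), and that of the cytoplasm part for GAMT alone. Counted with its sign reversed, since a lower cytoplasm level raises the ratio, the cytoplasm part made up 109% of the change of ALYREF and of CHCHD2. It made up 89.0% of that of EMG1, 93.6% of that of CD63, 68.4% of that of ADGRL2 and 49.8% of that of SLC25A1. For GAMT it was -17.3%, against the direction of the change. Of the 4766 sites, 75 changed by at least 2-fold, ALYREF, EMG1, ADGRL2 and CD63 among them, and 56 of the 75 had the larger part in the cytoplasm (74.7%), against 2681 of all 4766 sites (56.3%). These shares come from the values that chose the members, and nothing is read from them. The 2 genotypes share neither a cytoplasm nor a polysome library, but each value rests on 1 library per fraction, so that a difference between cell preparations cannot be told apart from one between genotypes.

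The members were chosen from the ends of the distribution and do not make up all of it. A change of at least 2-fold was reached upward by 3 members (ALYREF, EMG1 and ADGRL2) and by 0.692% of the 4766 sites, and downward by CD63 and by 0.881%. In the cytoplasm, 1 member was at least 2-fold higher (CD63, against 2.14% of sites) and 1 lower (ALYREF, against 1.7%). In polysomes 1 member was at least 2-fold higher (GAMT, against 1.2% of sites) and none lower, against 0.944%. All 7 main ends had more than 200 reads in each fraction library, and among the 1618 sites with at least 200 the shares were 0.309% up and 0.185% down for the change, 0.927% and 1.36% for the cytoplasm part and 0.556% and 0.618% for the polysome part. These shares come from the contrast that chose the members and are given as background. CHCHD2 had the smallest change of the 6 genes that shifted toward polysomes, one reached by 59 sites, itself included. The SD of the change over the 4766 sites was 0.39 on the log2 scale.

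**Figure D2:**
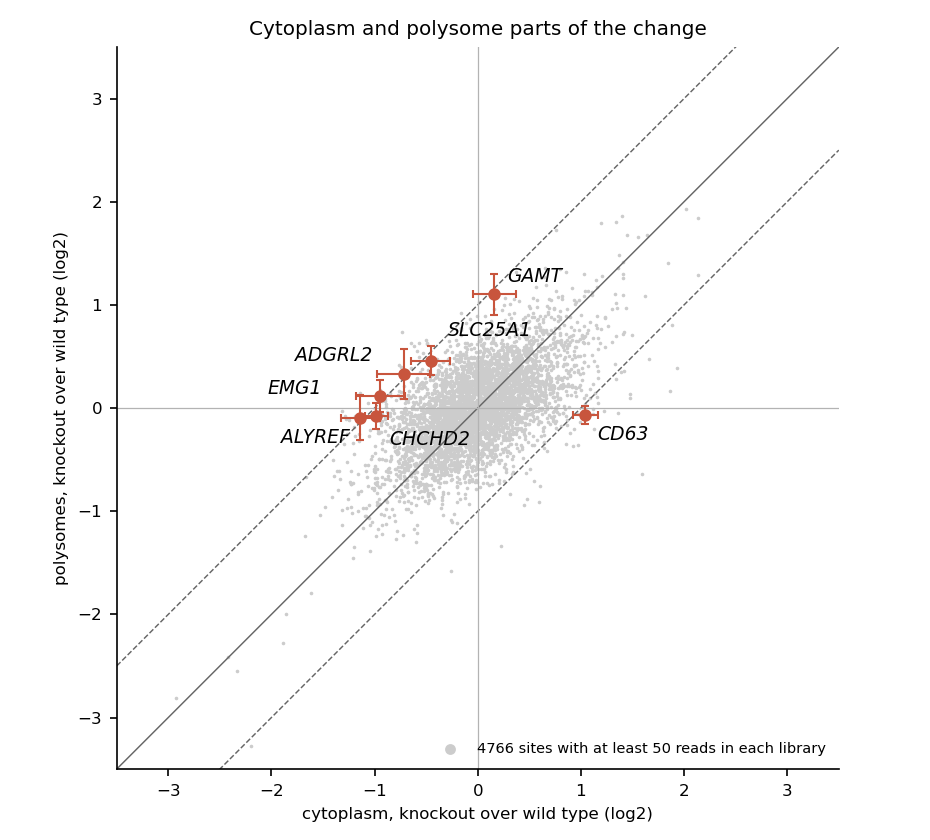
Cytoplasm part (horizontal) and polysome part (vertical) of the knockout-over-wild-type log2 difference, for the 7 members (red, with 95% counting intervals) and the 4766 sites that passed the 50-read minimum (grey). On the solid line both parts are equal and the polysome-over-cytoplasm change is 0, and the dashed lines mark changes of 1 and -1; GAMT lies above the centre (0.16, 1.10), ALYREF and CHCHD2 to its left and CD63 to its right (1.04, -0.07).

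The members also differed in where they started. In wild-type cells the log2 polysome-over-cytoplasm ratio was lowest for ALYREF (-1.34; 3.08% of the 4766 sites lay lower) and CHCHD2 (-0.99; 6.06% lower). It was -0.57 for ADGRL2, -0.42 for GAMT, 0.17 for SLC25A1 and 0.34 for EMG1, and highest for CD63 (1.12; 98.7% of sites lay lower). In knockout cells 27.3%, 43.3% and 50.9% of sites lay below ALYREF (-0.29), CHCHD2 (-0.08) and CD63 (0.01). EMG1 (1.41) and SLC25A1 (1.09) lay at its upper end, with 99.9% and 99.03% of sites below, and GAMT (0.51) and ADGRL2 (0.48) above 87.7% and 86.2%. ALYREF, CHCHD2 and CD63 thus lay nearer an end of the distribution in wild-type cells than in knockout cells. EMG1 and SLC25A1 lay nearer its upper end in knockout cells than in wild-type cells, where 75.4% and 64.2% of sites lay below them. These positions come from the values that chose the members.

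Among all sites the nearest to each member in the plane of the cytoplasm and polysome parts, by Euclidean distance on the log2 scale over the 2 values, were closer to it than any other member. The site closest to SLC25A1 was 84650654 (chromosome 2, minus strand; distance 0.008), that to CD63 27599994 (chromosome 2, plus strand; 0.017) and that to CHCHD2 51426576 (chromosome 3, plus strand; 0.042). For ADGRL2 it was the plus-strand site 3278181 of chromosome 18 (0.04). Near GAMT lay 7966899 (chromosome 19, plus strand; 0.04), near EMG1 161141101 (chromosome 1, minus strand; 0.05) and near ALYREF 126085872 (chromosome 10, minus strand; 0.05). The second sites of CHCHD2 (30435362, minus strand of chromosome 16), SLC25A1 (59955064, minus strand of chromosome 15) and CD63 (198417337, plus strand of chromosome 2) lay at 0.05, 0.05 and 0.07. Between members, ALYREF and CHCHD2 were the closest pair (0.16) and ALYREF and CD63 the farthest (2.18).

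The pull-downs are measurements that did not choose the members. The STAU1 pull-down asks which 3' ends were held with tagged STAU1 above the level in the same lysate, and the GFP pull-down measures what an unrelated tagged protein and the beads hold. The double ratio, STAU1 IP over its input divided by GFP IP over its input, compares them, and it shares no library between its numerator and denominator. Sites were tested with edgeR's quasi-likelihood test with Benjamini-Hochberg adjustment over 33744 sites, all 7 main ends passed the filter on low counts, and a site was called at an adjusted p under 0.05. Among all tested sites 3.06% were called higher and 2.99% lower in the STAU1 IP over input, 2.11% and 3.99% in the GFP IP over input, and 0.53% and 0.157% in the double ratio. The members are abundant, and among the 3855 sites with an average log2 CPM of at least 5 these shares were 14.3% and 16.2%, 10.4% and 23.9%, and 3.89% and 1.09%. Scaling moved the split of the GFP calls from 711 higher and 1348 lower to 925 and 1050 (RLE size factors) or 1211 and 751 (library totals), and the median log2 change of all sites in that pull-down was -0.16, 0.00 and 0.13. For STAU1, 1032 and 1008 became 1417 and 834 with library totals, and for the double ratio 179 and 53 became 154 and 96 (RLE size factors), 133 and 97 (library totals) or 441 and 323 (DESeq2).

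ALYREF and CHCHD2 were higher in the GFP pull-down than in its input and were not called in the STAU1 pull-down. ALYREF had 319 and 390 CPM in the GFP IP libraries, 114 and 144 in the GFP inputs, 183 and 125 in the STAU1 IP and 153 and 147 in the STAU1 inputs. Both GFP IP libraries lay above all 6 others, which overlapped. The GFP IP over input was 1.46 ± 0.23 on the log2 scale (SE; Benjamini-Hochberg adjusted p = 0.000436 by edgeR) and the STAU1 IP over input 0.04 ± 0.22 (edgeR adjusted p = 0.957). CHCHD2 had 608 and 726 CPM in the GFP IP, 217 and 286 in its inputs, 264 and 183 in the STAU1 IP and 296 and 286 in its inputs. Again the GFP IP libraries were the highest, and the STAU1 IP lay below its inputs without being called. The GFP IP over input was 1.41 ± 0.21 (edgeR adjusted p = 0.00032) and the STAU1 IP over input -0.38 ± 0.21 (edgeR adjusted p = 0.335).

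In the double ratio 2 of the 7 members were called lower, ALYREF and CHCHD2, against 0.157% of all tested sites and 1.09% of the abundant ones, and none was called higher. ALYREF was at -1.42 ± 0.31 (edgeR adjusted p = 0.0437; 3.9e-05 to 0.201 over the alternatives) and CHCHD2 at -1.79 ± 0.30 (edgeR adjusted p = 0.00567; 1.22e-09 to 0.0725 over the alternatives), where the median of all tested sites was 0.30. Both calls were lost when either of the shallow GFP IP libraries was left out. Such a fit leaves 1 library in that group, and why the calls were lost was not tested. Without GFP IP replicate 1 the values were -1.55 for ALYREF (edgeR adjusted p = 0.157) and -1.91 for CHCHD2 (0.0608). Leaving out GFP IP replicate 2 gave -1.27 (0.201) and -1.66 (0.0725). ALYREF alone also lost its call without STAU1 IP replicate 2 (-1.17, edgeR adjusted p = 0.142), STAU1 input replicate 1 (-1.39, 0.132) or GFP input replicate 1 (-1.29, 0.153), and with no filter on low counts (-1.19, 0.121). The higher levels in the GFP IP itself were called in every setting run, with log2 changes from 1.02 to 1.77 for ALYREF and from 0.97 to 1.72 for CHCHD2. In the fractions, in the values that chose the members, ALYREF and CHCHD2 were also the closest pair (distance 0.16). EMG1 lay nearly as close to CHCHD2 (0.20) and was lower in the GFP IP (-0.80), without being called. A link between the fractions and the pull-downs was not tested.

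CD63 was lower in both pull-downs than in their inputs. It had 276 and 299 CPM in the STAU1 IP against 532 and 575 in its inputs, and 212 and 214 in the GFP IP against 650 and 626 in its inputs. All 4 pull-down libraries lay below all 4 inputs. The STAU1 IP over input was -0.95 ± 0.17 (edgeR adjusted p = 0.00193) and the GFP IP over input -1.59 ± 0.18 (edgeR adjusted p = 1.74e-05), both called in every setting run. The difference between them was not called (double ratio 0.64 ± 0.24, edgeR adjusted p = 0.313). CD63 was the one member called in the STAU1 IP, 1 of 7 lower and none higher, a share near that of all abundant sites (16.2% lower, 14.3% higher). In the GFP IP, 2 of 7 members were called higher and 1 lower, where 2.11% of all tested sites were called higher and 3.99% lower, and 10.4% and 23.9% of the abundant ones.

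**Figure D3:**
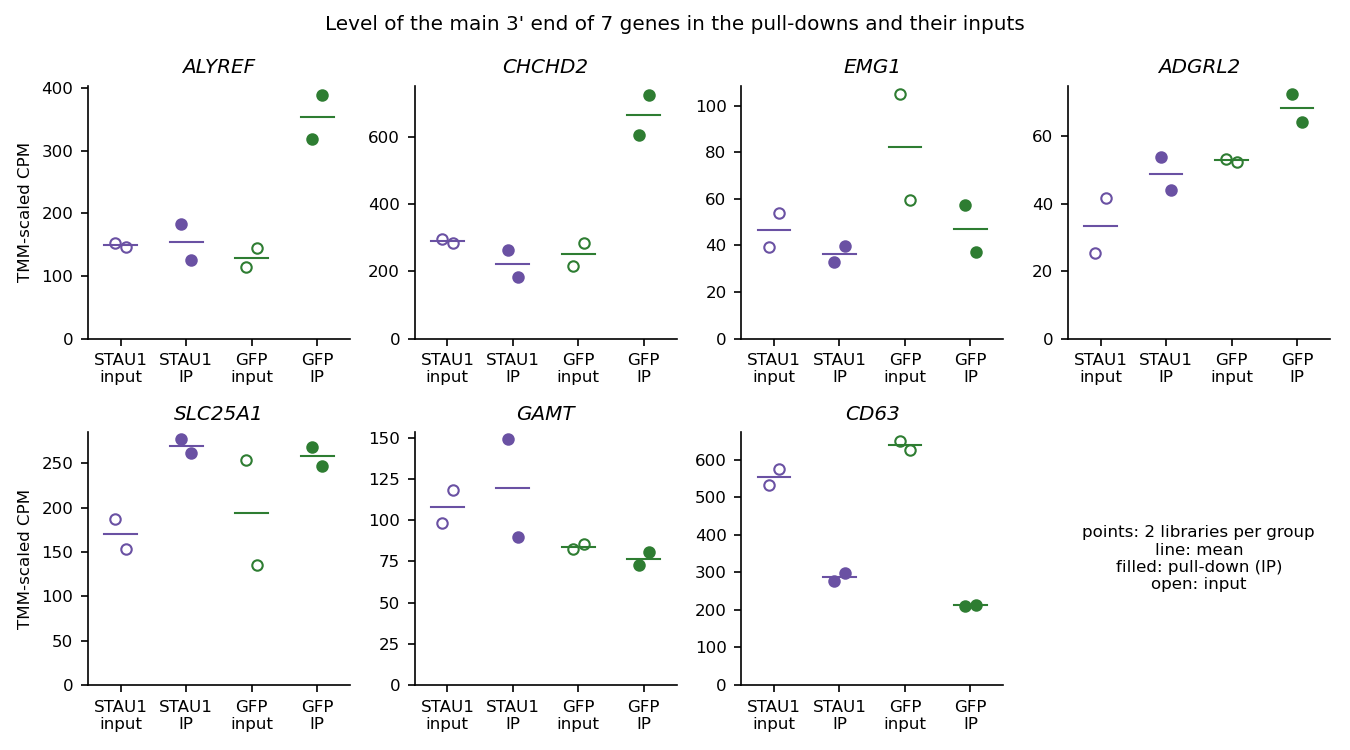
Level of the main 3' end of each gene (TMM-scaled CPM, axis from 0) in STAU1 input, STAU1 IP, GFP input and GFP IP; points are the 2 libraries of a group and lines their mean. ALYREF and CHCHD2 are highest in both GFP IP libraries (319 and 390 CPM, 608 and 726 CPM), and CD63 is lower in both pull-downs than in their inputs.

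The other 4 members were called in neither pull-down nor in the double ratio. SLC25A1 had 277 and 261 CPM in the STAU1 IP against 187 and 154 in its inputs, and 268 and 247 in the GFP IP against 253 and 135 in its inputs. The STAU1 IP libraries lay above their inputs, and the GFP inputs were far apart. Its STAU1 IP over input of 0.66 ± 0.24 was the highest of the members (edgeR adjusted p = 0.129). It was called with the replicate number as a block (0.67, edgeR adjusted p = 0.042) and without GFP input replicate 1 or 2 (0.67 each; edgeR adjusted p = 0.0433 and 0.0422), and the range over all alternatives was 0.042 to 0.943. The GFP IP over input was 0.41 ± 0.25 and became 0.97, a called value, without GFP input replicate 1 (edgeR adjusted p = 0.0317; highest over the alternatives 1). ADGRL2 had 53.9 and 44.0 CPM in the STAU1 IP against 25.3 and 41.6 in its inputs, and 72.6 and 64.1 in the GFP IP against 53.4 and 52.5. Both pull-downs lay above their inputs by less than the test could call, 0.54 ± 0.28 for STAU1 (edgeR adjusted p = 0.307) and 0.37 ± 0.29 for GFP (0.573).

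GAMT at its main end had 149 and 90.0 CPM in the STAU1 IP against 98.3 and 118 in its inputs, and 72.6 and 80.9 in the GFP IP against 82.5 and 85.6. The STAU1 groups overlapped, and the changes were 0.14 ± 0.25 for STAU1 (edgeR adjusted p = 0.816) and -0.13 ± 0.26 for GFP (0.866). EMG1 had 32.9 and 39.9 CPM in the STAU1 IP against 39.5 and 53.8 in its inputs, and 57.4 and 37.2 in the GFP IP against 105 and 59.4. Its STAU1 groups overlapped, and its GFP IP libraries lay below their inputs. The changes were -0.36 ± 0.31 (edgeR adjusted p = 0.579) and -0.80 ± 0.32 (0.197). The double ratios of these genes were 0.25 ± 0.34 for SLC25A1, 0.18 ± 0.40 for ADGRL2, 0.28 ± 0.36 for GAMT and 0.43 ± 0.45 for EMG1, each within 2 SE of 0 and near the median of all tested sites (0.30). With this spread a moderate difference between the pull-downs would not have been called, so that no equality of the pull-downs is shown for them.

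Over the 7 genes the median log2 change was 0.04 in the STAU1 IP (all tested sites 0.12, abundant sites -0.01), 0.37 in the GFP IP (-0.16 and -0.27) and 0.25 in the double ratio (0.30 and 0.20). Set beside the fractions, the 6 genes with a change toward polysomes of 0.91 to 1.06 in the knockout ranged from -0.38 to 0.66 in the STAU1 IP and from -1.79 to 0.43 in the double ratio. The 3 genes with almost the whole change in the cytoplasm and toward polysomes (ALYREF, CHCHD2 and EMG1) had GFP IP values of 1.46, 1.41 and -0.80. GAMT, with the change in polysomes, was near 0 in both pull-downs at its main end.

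**Figure D4:**
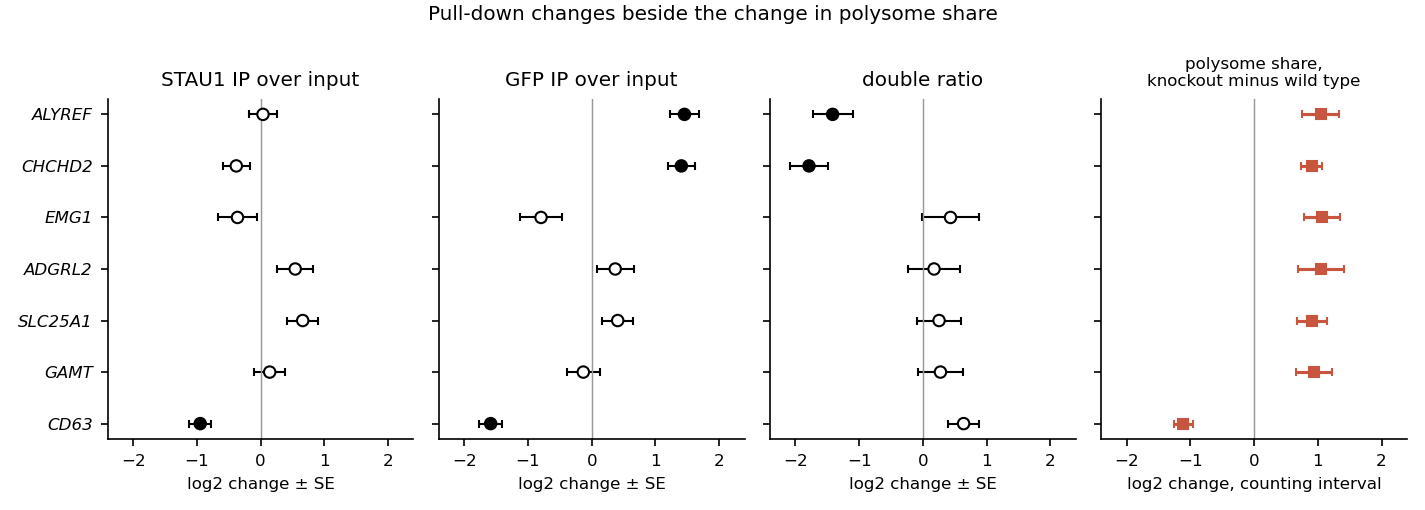
Log2 change of each main 3' end in the STAU1 IP over input, the GFP IP over input and the double ratio of both (circles with SE; filled where the edgeR adjusted p is under 0.05), and the knockout-minus-wild-type change in polysome over cytoplasm (squares with 95% counting intervals, no test). The filled circles are CD63 in the STAU1 IP (-0.95), ALYREF, CHCHD2 and CD63 in the GFP IP, and ALYREF and CHCHD2 in the double ratio.

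The inputs compare total RNA of knockout cells given STAU1-FLAG with knockout cells given FLAG-GFP. No member was called by edgeR's quasi-likelihood test or by DESeq2. Of all tested sites edgeR called 3 higher and 0 lower (0.00889% and 0.0%), and DESeq2, which gave an adjusted p for 2996 sites, called 19 higher and 0 lower. At an unadjusted p under 0.05 edgeR gave 638 of the 33744 tested sites higher and 717 lower, and DESeq2 gave 779 and 634. Of the 7 members, each tool gave 0 higher and 2 lower, EMG1 and ADGRL2. Without adjustment for the number of sites such a p does not set these 2 members apart from the spread between libraries, and no effect is read from it. EMG1 had 39.5 and 53.8 CPM with STAU1-FLAG against 105 and 59.4 with GFP, and ADGRL2 25.3 and 41.6 against 53.4 and 52.5. The STAU1-FLAG values of both lay below the GFP values, by -0.81 ± 0.31 and -0.66 ± 0.28. Single libraries moved these values: EMG1 was at -0.31 without GFP input replicate 1, its highest input, and at -1.15 without the other GFP input, and ADGRL2 was at -0.35 without STAU1 input replicate 1 and at -1.01 without STAU1 input replicate 2. ALYREF and CHCHD2, which were lower in the cytoplasm of the knockout than in wild type, were at 0.21 ± 0.22 and 0.21 ± 0.21 with STAU1-FLAG over GFP. CD63, which was higher in knockout cytoplasm, was at -0.20 ± 0.17, SLC25A1 at -0.19 ± 0.24 and GAMT at 0.37 ± 0.25.

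GAMT, CD63, EMG1 and ADGRL2 each had at least 1 further 3' end with 50 or more reads over the fractions. For GAMT this was at 1397814, 721 nt upstream of the main end, and in the STAU1 pull-down its value was far above that of the main end (0.14), a difference between ends that was not tested. It had 33.8 and 21.7 CPM in the STAU1 IP against 3.59 and 5.11 in its inputs, and 2.07 and 12.4 in the GFP IP against 6.25 and 4.11. The STAU1 IP libraries lay above all others, and the GFP IP libraries, with 3 and 17 reads, fell on both sides of theirs. The STAU1 IP over input was 2.66 ± 0.62 (edgeR adjusted p = 0.0119; 0.0021 to 0.135 over the alternatives), higher than at 89.6% of all tested sites. The double ratio of 2.19 ± 0.89 was not called (edgeR adjusted p = 0.352), and it moved to 1.40 when GFP IP replicate 1 was left out (edgeR adjusted p = 0.722) and to 3.97 when the other library of that group was (0.156). The call was lost without STAU1 IP replicate 1 (2.31, edgeR adjusted p = 0.118), without STAU1 input replicate 1 (2.44, 0.0747) and with no filter on low counts (2.44, 0.135). Of the reads at the pair of GAMT ends, the upstream end took 18.5% (95% Wilson interval 16.4 to 20.8) and 19.5% (16.7 to 22.6) in the STAU1 IP, and 3.52% and 4.14% in its inputs. It took 2.78% and 13.3% in the GFP IP and 7.04% and 4.58% in its inputs. In the fractions the share was 3.49% (2.01 to 5.998) in wild-type cytoplasm, 7.43% (5.39 to 10.2) in knockout cytoplasm, 8.95% (6.26 to 12.6) in wild-type polysomes and 9.74% (7.94 to 11.9) in knockout polysomes. On 12 to 84 reads per library, its polysome-over-cytoplasm change was -0.08 (-1.21 to 1.05), an interval too wide to set it apart from the main end's 0.94.

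The second end of CD63 lay 25 nt downstream of the main end in the fraction table, at 56119233, and was matched to 56119231 in the pull-down table. Its change in polysome over cytoplasm was 0.13 (-0.36 to 0.63), and that of the main end, which was chosen for this value, -1.11 (-1.26 to -0.96). In the cytoplasm it stood at 36.4 CPM in wild-type and 41.5 in knockout cells, beside the 2.06-fold difference of the main end. In the GFP IP it was at 67.1 and 64.9 CPM against 76.7 and 69.8 in its inputs, a log2 change of -0.15 ± 0.25 (edgeR adjusted p = 0.828) beside -1.59 at the main end. In the STAU1 IP it was at 35.5 and 39.9 against 67.6 and 65.3, a change of -0.82 ± 0.24 (edgeR adjusted p = 0.0507) close to that of the main end (-0.95). It was called there with DESeq2 (-0.80, adjusted p = 0.0359) and with the replicate block (-0.82, edgeR adjusted p = 0.0486), and its adjusted p over the alternatives reached 0.322. Its share of the reads at both ends was 24.1% and 23.3% in the GFP IP, and 10.0% to 11.8% in the 6 other pull-down and input libraries. The difference between the ends was not tested. The sources used here do not say how reads at 2 ends this close were assigned.

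**Figure D5:**
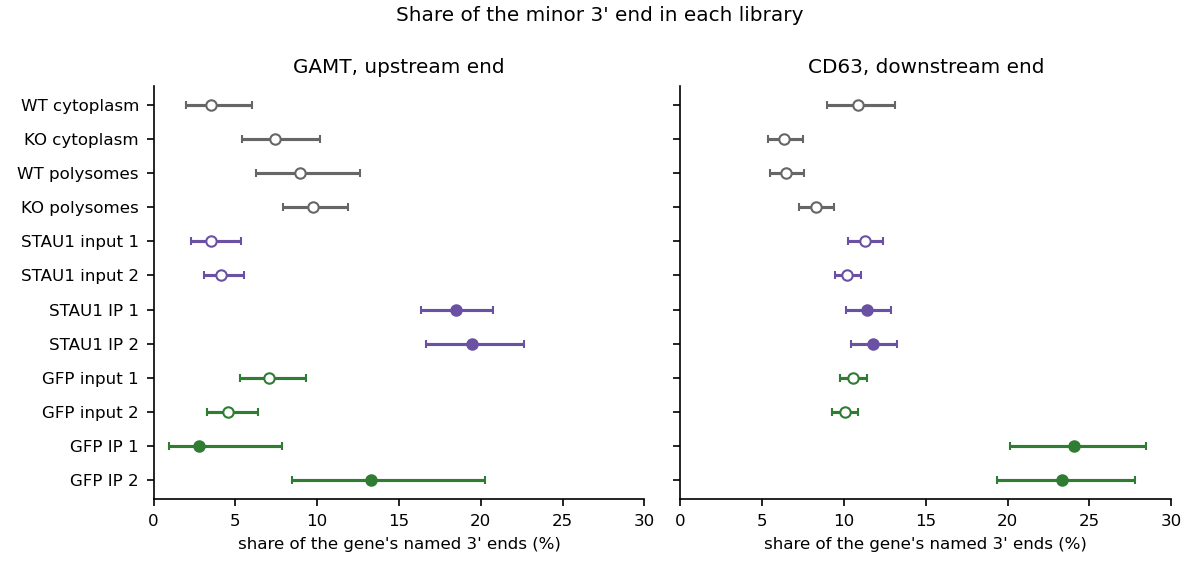
Share (%) of the upstream end of GAMT (left) and of the downstream end of CD63 (right) among the reads at a gene's named ends, in each of the 12 libraries, with 95% Wilson intervals that cover counting error only. The GAMT end is highest in both STAU1 IP libraries (18.5% and 19.5%), and the CD63 end in both GFP IP libraries (24.1% and 23.3%).

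The remaining ends were sparse. ADGRL2 had an end 608 nt upstream with 20 to 32 reads per fraction library and a polysome-over-cytoplasm change of 0.51 (-0.61 to 1.63). EMG1 had ends 29 nt downstream and 138 nt upstream with 10 to 21 reads each, and changes of -0.57 (-1.94 to 0.79) and 0.57 (-0.99 to 2.13). The ADGRL2 end and the downstream EMG1 end were called in no pull-down comparison, and the upstream EMG1 end did not pass the filter on low counts there.

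Genes of the same families or pathways with enough reads had smaller changes than the members, which were chosen for theirs. A list of 15 relatives held tetraspanins (CD9, CD81, CD151), CHCHD10, a paralog of CHCHD2, the citrate enzymes ACLY and CS, the creatine genes GATM and SLC6A8, NOP14, a partner of EMG1 in ribosome biogenesis, the export factors NXF1, DDX39B and CHTOP, ADGRL1, and GAPDH and ACTB as references. Their hg19 ends, and that of STAU1, were recalled to the nearest 1000 nt and not read from an annotation, so that these names are less sure than those of the members. The RefSeq table of GRCh38 gave the same chromosome for all 16 and the same strand for the 12 that it lists with one. Of these, 9 had at least 50 reads in each fraction library, and none reached 2-fold in the change, the cytoplasm part or the polysome part. Their changes lay between -0.41 (CHCHD10) and 0.28 (ACTB), with a median of -0.07, against 0.94 over the members. CD81 and CD151 were at -0.04 (-0.19 to 0.11) and -0.31 (-0.55 to -0.06), where CD63 was at -1.11. CHTOP and DDX39B were at 0.15 (-0.23 to 0.52) and -0.07 (-0.60 to 0.47), where ALYREF was at 1.04. ACLY, the enzyme that uses the citrate exported by SLC25A1, was at -0.15 (-0.33 to 0.02). With fewer reads and so outside these 9, CS was at 0.97 (0.20 to 1.74), NXF1 at -0.96 (-1.70 to -0.22) and CD9 at -0.61 (-1.27 to 0.06).

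In the pull-downs 13 relatives were tested, and DDX39B was not analysed here. In the STAU1 IP 1 was called higher (NOP14) and 2 lower (GAPDH at -0.83 ± 0.16 and CS at -1.23 ± 0.36), in the GFP IP none higher and 2 lower (CHCHD10 at -1.46 ± 0.19 and NOP14 at -1.22 ± 0.33), and in the double ratio NOP14 alone, higher. CHCHD10 thus had the opposite sign to CHCHD2 in the GFP IP. Of all tested sites 3.06% were called higher and 2.99% lower in the STAU1 IP. The shares were 2.11% and 3.99% in the GFP IP and 0.53% and 0.157% in the double ratio. Among abundant sites they were 14.3% and 16.2%, 10.4% and 23.9%, and 3.89% and 1.09%. CHCHD10 gained a call in the STAU1 IP and in the double ratio with no filter and with DESeq2. ACLY, CD151, GAPDH and ADGRL1 gained one in the GFP IP in 1 or 2 of 13 alternatives. The call of CS held an adjusted p close to the threshold and was lost in 8 of 13 alternatives. The call of NOP14 in the GFP IP was lost without either GFP IP replicate (edgeR adjusted p = 0.229 and 0.149), without GFP input replicate 1 (0.275) and with RLE size factors, library totals or DESeq2 (0.0139 to 0.275 over the alternatives). Among the export factors, NXF1 and CHTOP had GFP IP values of 0.79 ± 0.44 and -0.28 ± 0.20, neither called, beside 1.46 for ALYREF. GATM, SLC6A8 and ADGRL1 had too few reads in the fractions for a ratio, at most 7 per library.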

How the data were processed

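Each table the authors deposited holds unnormalized read counts at poly(A) sites, one table for the 8 pull-down libraries and another for the 4 fraction libraries. The submitters' processing notes name STAR and the hg19 build, without a version; the sources used here do not say how sites were clustered. The members, the list of relatives and the tests were chosen with earlier results of these data known.

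The main end of a gene was the site with the most fraction reads within 1000 nt on its strand, matched within 24 nt to the pull-down table. Named were all members, their other ends with at least 50 fraction reads, the relatives, and for each member the 2 sites nearest in the cytoplasm and polysome parts, of which those on chromosome 8 are not reported here. RefSeq tables of GRCh38 gave the same chromosome for 7 of 7 members and the same strand for the 6 they list. The positions of the relatives and of STAU1 were recalled to the nearest 1000 nt. Cell type markers and sequences were not analysed here.

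The pull-down test was edgeR's quasi-likelihood test (version 4.0.16, R 4.3.3), fitted to all 8 libraries by group without covariates, leaving 4 residual degrees of freedom, after filterByExpr and TMM scaling, with Benjamini-Hochberg adjustment over 33744 sites, threshold 0.05. The script was tested on simulated data with changes set at abundant sites, and only for the STAU1 IP over input. An SE is the log2 change divided by the square root of the F statistic. In the fractions no test was made: log2 ratios are of TMM-scaled counts with 95% Poisson intervals, against sites with at least 50 reads per library. Alternatives were RLE size factors, library totals, no filter, DESeq2 1.42.0, a replicate block, each library left out, window sums, and for the fractions library totals without mitochondrial reads and minimums of 20 and 100 reads. Those for further ends and relatives were added after seeing the data.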

Additional observations from a re-analysis of the deposited data

Results flagged for a closer look

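The effect of the pull-down was called different between the STAU1 and the GFP cells at 3 of the ends described, by the test of the difference itself (edgeR's quasi-likelihood test, Benjamini-Hochberg adjusted p under 0.05). Of all tested sites 0.53% were called higher and 0.157% lower. The call was lost in 6 of 14 alternatives for ALYREF and in 2 of 14 for CHCHD2. The log2 double ratio was -1.42 at ALYREF and -1.79 at CHCHD2, where the end was raised in both GFP IP libraries. It was 3.03 ± 0.44 at NOP14 (chromosome 4, minus strand, 2939666, named from a recalled position), with 85.3 and 85.7 CPM in the STAU1 IP against 24.2 and 24.5 in its inputs, and 12.4 and 13.1 in the GFP IP against 33.9 and 25.7. The NOP14 value was 2.99 without GFP IP replicate 1 (edgeR adjusted p = 0.0526; 4.07e-06 to 0.0526 over the alternatives). The GFP IP libraries behind it held 18 reads each at NOP14.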

How the results depend on the processing

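Members called in the STAU1 IP numbered 1 (CD63), and 2 with SLC25A1 added when the replicate number was a block; without 1 library they numbered 1 to 2. Members called in the double ratio numbered 2, and 1 (CHCHD2) with no filter on low counts; without 1 library they numbered 0 to 2, with 0 when either GFP IP library was left out. The cause was not tested. In the cytoplasm 2 members were past 2-fold, and 1 (ALYREF) when all sites of the window were summed, since CD63 was then at 0.97. The counts for the GFP IP, the inputs, the change in polysome over cytoplasm and polysomes stayed within 1.5 times under every alternative run. In the fractions, all alternatives except the window sums kept the counts of the members and changed only the library scaling, which limits what they can show. Of 126 alternative values of single members there, none moved by more than its counting interval. Of 392 in the pull-downs, 380 kept their side of the threshold, 4 gained a call (SLC25A1) and 8 lost one (ALYREF and CHCHD2, double ratio), and no called value changed sign. Values with no call as reported that took either sign were, in the GFP IP, SLC25A1 (-0.02 to 0.97, the latter called), ADGRL2 (-0.07 to 0.68) and GAMT (-0.57 to 0.18), in the STAU1 IP, ALYREF (-0.26 to 0.29) and GAMT (-0.27 to 0.46), in the double ratio, SLC25A1 (-0.30 to 0.62), ADGRL2 (-0.13 to 0.54), GAMT (-0.14 to 0.60) and EMG1 (-0.06 to 0.78), and between the inputs, SLC25A1 (-0.55 to 0.37).

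The correlation of replicate deviations over the 33744 tested sites was 0.005 between STAU1 IP and input and 0.001 between GFP IP and input. Counting error at sites with few reads lowers such a correlation. It therefore does not settle whether same-numbered libraries were paired. The replicate block changed 2 of 100 calls, SLC25A1 and the second end of CD63 in the STAU1 IP, and no other. Counts over all sites were 389 higher and 123 lower in the double ratio with the block (179 and 53 without it), and 6 against 3 higher between the inputs. They were 319 higher in the STAU1 IP, 205 in the GFP IP and 307 in the double ratio with no filter. DESeq2 gave 1224 higher in the GFP IP and 19 higher between the inputs. Between the inputs, no filter gave 10 higher and 1 lower. Without 1 library the calls fell to as few as 443 higher and 564 lower (STAU1 IP), 271 and 413 (GFP IP), and 17 and 5 (double ratio, which reached 390 and 111 without STAU1 input replicate 2), and between the inputs ranged from 0 to 10 higher and reached 32 lower. Depth limits the GFP IP most, with 3 and 17 reads at the upstream end of GAMT, and the fractions hold 1 library each.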
